A study of Rattus norvegicus with 11 samples.

Results

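The genes described here are 7 members of the mitogen-activated protein (MAP) kinase cascade, Mapk3, Mapk8, Mapk9, Mapk14, Map2k1, Map2k2 and Map3k1. They were taken as every probe set, the group of short probes that the array combines into 1 reading, whose single gene symbol in the platform annotation is one of these names. Of the 7 genes, 6 had probe sets, 19 in all out of 8799 on the array, and 15 of the 19 were bright enough to be tested among 5244. Mapk3 had no probe set under that name in the annotation used and was not analysed here. One further probe set, L27128_at, carries the symbols of both Mapk8 and Mapk10 and is assigned to neither.

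Total RNA of ventricles from Fischer-344 rats, which are an inbred strain common in ageing studies, was hybridised to 11 Affymetrix arrays. The old group held 6 arrays from rats of 22 months and the young group 5 arrays from rats of 4 months. The labels give no treatment, allele or other intervention for either group. They write rat for some arrays and rats for others and do not say whether animals were pooled or whether each array is a separate animal, so p-values measure only how these samples vary, a spread that may be technical.

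A MAP kinase cascade is a relay of protein kinases in which a MAP kinase kinase kinase phosphorylates a MAP kinase kinase, which in turn phosphorylates a MAP kinase on a threonine and a tyrosine. The ERK arm answers mainly to growth factors through the kinases Map2k1 and Map2k2 (MEK1 and MEK2), while the JNK and p38 arms answer to stress and cytokines. In heart muscle these arms are known for their part in hypertrophic growth and in the response to ischaemia and pressure load. The kinases are switched on by phosphorylation, which an RNA array does not measure, so the values below are transcript levels.

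The question was whether transcripts of the ERK, JNK and p38 arms differ between old and young ventricle. No member did so after adjustment over all tested probe sets: 0 of 15 passed an adjusted p of 0.05 in limma, and 0% of all tested probe sets passed. At an unadjusted p under 0.05 there were 4 of 15, all lower in old, where 4.12% of all tested probe sets were lower, 3.39% were higher and 7.51% differed in either direction. These 4 were 1 probe set of Map2k1, 1 of Map2k2 and 2 of Mapk14. In an exact two-sided permutation test their unadjusted p-values were 0.0281 (D14591_s_at), 0.00649 (rc_AA963674_g_at), 0.0476 (rc_AI137862_s_at) and 0.0628 (U73142_g_at). The last was thus not under 0.05 in that test, and the adjusted permutation p-values of the 4 ran from 0.516 to 0.692. By sign alone, 12 of the 15 tested member probe sets were lower in old, against 50.6% of all tested probe sets, and their median log2 difference was -0.73, against -0.01 over all of them. For 4 of these 12, D14591_s_at and the 3 probe sets of Map3k1, the old mean alone lies under the brightness limit of 7.00, so they were tested because of their young arrays, and these counts only describe the probe sets that were tested.

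**Figure D1:**
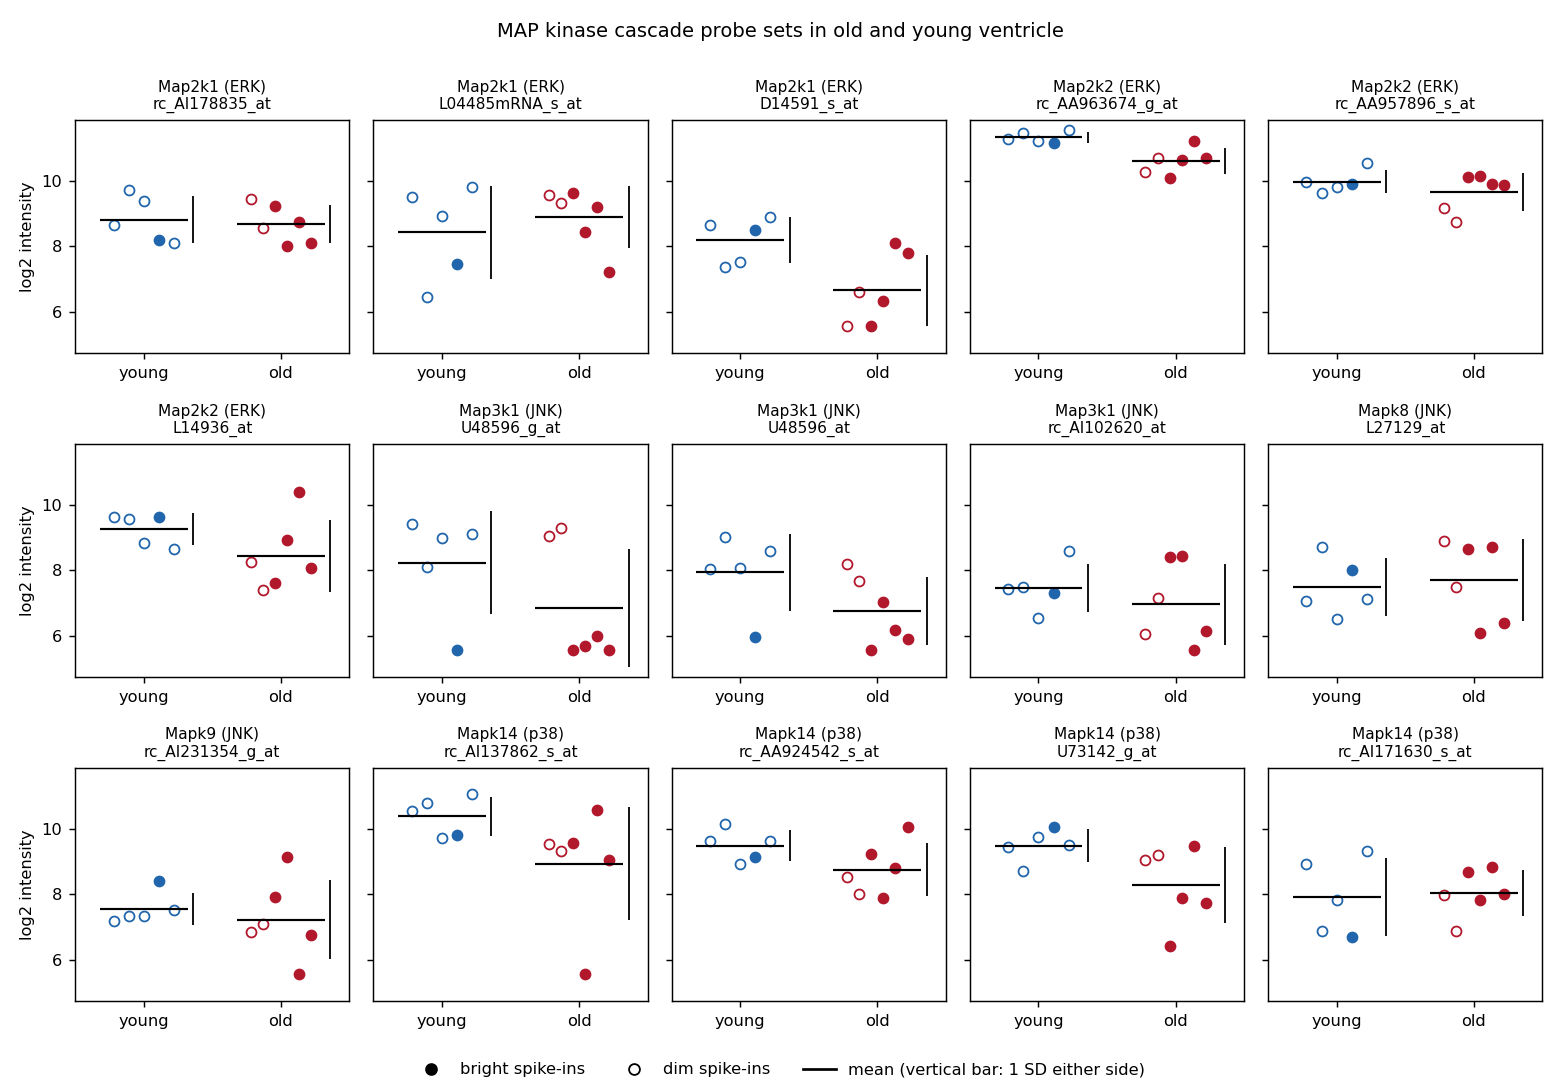
Log2 intensity of the 15 tested member probe sets on each array, with young arrays on the left and old arrays on the right of each panel; horizontal lines are group means, vertical bars 1 SD either side, and filled points are arrays with bright spike-in controls. The groups overlap in every panel; for Map2k2 rc_AA963674_g_at and Mapk14 rc_AI137862_s_at, 5 of 6 old arrays lie below every young one.

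The arrays were not alike in technical measures. Spike-in controls, transcripts added to each sample, were bright on 5 arrays (old replicates 3 to 6 and young replicate 4) and dim on the other 6. The cut was at the widest gap of 1.76 on the log2 scale, with the next widest gap at 1.71. Young replicate 4 had the lowest mean of the bright arrays, 11.97, with the next at 13.19 and the highest dim array at 10.20. Old replicates 3 and 4 also had GAPDH 3' over 5' log2 ratios of 3.39 and 4.09, against 0.07 to 0.77 on the other arrays. The labelled tissue carried its markers: 10 of 12 ventricular muscle genes were measured (4 higher in old), with summed intensities of 375504 to 581531 in old and 356352 to 574536 in young, and none was at the floor of 47.4 on all arrays. Their mean log2 intensity was 14.45 ± 0.18 (SD) in old and 14.67 ± 0.18 (SD) in young. Summed macrophage and granulocyte markers (8 of 10 measured, 6 higher in old) ran from 3339 to 37133 in old and from 1808 to 3363 in young. The mean log2 intensity of these markers was 8.12 ± 0.23 (SD) in old and 7.31 ± 0.33 (SD) in young. Summed endothelial markers (5 of 8 measured, 0 higher in old) ran from 493 to 2459 in old and from 2028 to 2473 in young. For these the mean log2 intensity was 7.71 ± 0.81 (SD) in old and 8.34 ± 0.15 (SD) in young. Atrial (3 of 4 measured), smooth muscle (4 of 5) and red cell markers (3 of 5) were each higher in old by mean for every measured gene. Atrial sums ran from 9875.5 to 97376 in old and from 3758 to 35863 in young. Smooth muscle sums ran from 807.5 to 16936 in old and from 679 to 2927 in young, and red cell sums from 13943 to 178153 and from 2084 to 73348. For fibroblast, lymphocyte, fat and nerve markers, 5 of 8, 4 of 5, 4 of 6 and 3 of 5 measured genes were higher in old, and all of these summed ranges overlapped between the groups. No marker of any list was at 0, and the part of these markers in the results was not tested. In whole ventricle, fewer cells of a type and less RNA per cell cannot be told apart.

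The ERK arm was read through its MAP kinase kinases. Map2k2 (MEK2), which phosphorylates the ERK kinases, had the member probe set with the smallest p, rc_AA963674_g_at. Its intensity in old ran from 1089 through a median of 1628 to 2378, and the 5 young arrays, replicates 1 to 5, read 2509.7, 2837, 2381, 2284 and 2983. Old replicate 5 was the only old array within the young range, and the other 5 lay below every young array. On the log2 scale the old mean was 10.6 ± 0.40 (SD, n = 6) and the young mean 11.34 ± 0.16 (SD, n = 5). The difference was -0.73 ± 0.29 (SE), a ratio of 0.601, with a 95% confidence interval of -1.34 to -0.13 and a limma adjusted p of 0.56 (unadjusted p = 0.02; exact two-sided permutation p = 0.00649 over 462 splits, adjusted p = 0.516). It was lower in old under all 26 alternative fits, which reuse the same arrays, by -1.02 to -0.50.

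The other Map2k2 probe sets were also lower in old by sign, with smaller differences relative to their error. L14936_at ran from 169.9 through a median of 285 to 1336 in old, and the young arrays, in order of replicate, read 796, 764, 458, 796 and 399. Old replicate 5 lay above every young array here and 4 old arrays lay below every young one, for a difference of -0.82 ± 0.51 (SE, limma adjusted p = 0.72). rc_AA957896_s_at differed by -0.31 ± 0.36 (SE, limma adjusted p = 0.858), with old arrays from 431 to 1131 and young ones from 791 to 1509.5. Both of its old arrays below the young range, replicates 1 and 2, had dim spike-ins, and within the dim arrays the difference was -1.04 ± 0.39, against 0.12 ± 0.75 within the bright ones.

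Map2k1 (MEK1), the other kinase that activates the ERK kinases, gave different answers from its 3 probe sets. D14591_s_at ran from 37.6 through a median of 88.6 to 277 in old, and the young arrays read 405, 165.5, 186, 359 and 479. Old replicates 5 and 6 were within the young range and the other 4 lay below it, 2 of them under the floor. The old mean on the log2 scale was 6.66 ± 1.09 (SD, n = 6) and the young mean 8.19 ± 0.69 (SD, n = 5). The difference of -1.53 ± 0.61 (SE; 95% confidence interval -2.81 to -0.25) had a limma adjusted p of 0.56 and an unadjusted p of 0.0218, and floored values understate it. It was lower in old under all 25 alternatives that tested it, by -2.03 to -1.17. Among the dim arrays (2 old, 4 young) it differed by -2.03 ± 0.66 (SE). Among the bright ones it differed by -1.54, with young replicate 4 as the only young array.

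The other probe sets of Map2k1 did not show this difference. rc_AI178835_at, which stands for the gene as the probe set of highest mean, ran from 258 to 694 in old and from 274 to 847 in young. Its difference was -0.13 ± 0.45 (SE, limma adjusted p = 0.957), with a 95% confidence interval of -1.08 to 0.82, and its sign turned under 8 of 26 alternatives. L04485mRNA_s_at was higher in old, by 0.47 ± 0.61 (SE, limma adjusted p = 0.874), with young arrays spread from 88.2 to 894 and old ones from 148 to 801. Over the 11 arrays, after removal of the group means, D14591_s_at and rc_AI178835_at had a Pearson r of -0.67, so this pair did not vary together. The suffix _s_at marks probes that can match several related transcripts.

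**Figure D2:**
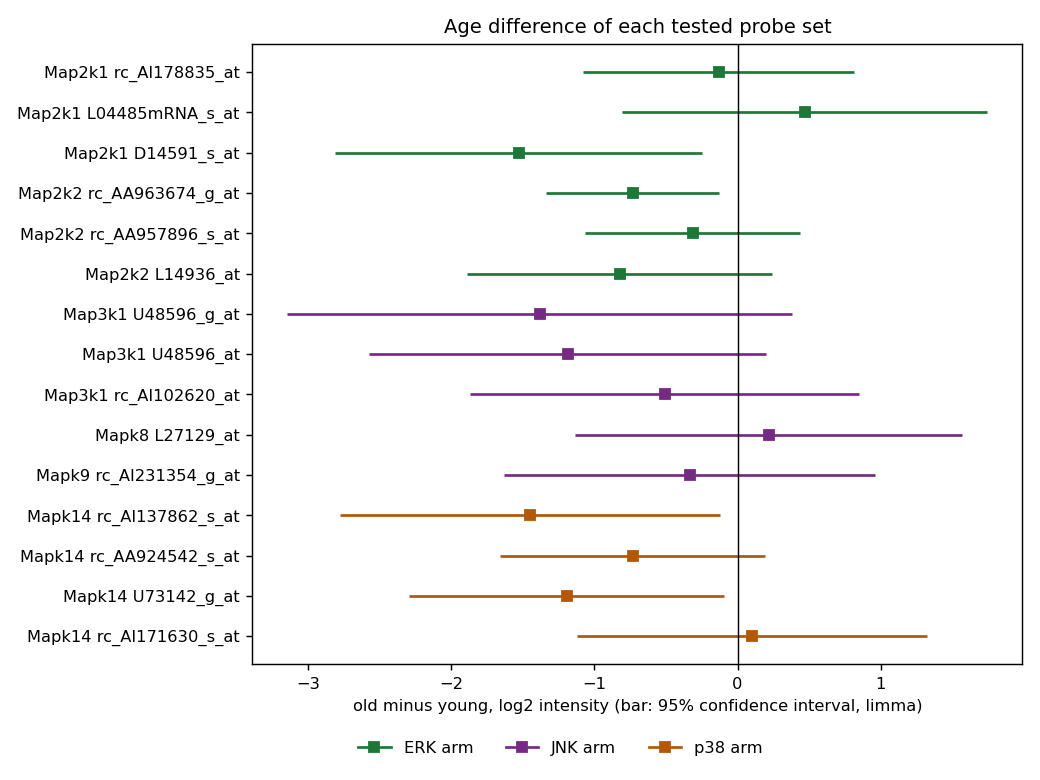
Difference of old minus young in log2 intensity for each tested member probe set, with its 95% confidence interval from limma, coloured by arm. The intervals of D14591_s_at, rc_AA963674_g_at, rc_AI137862_s_at and U73142_g_at lie below 0 before adjustment, and those of the JNK arm all include 0.

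Mapk14 is p38 alpha, the main p38 kinase of heart muscle, and its 6 probe sets were the most of any member. rc_AI137862_s_at, which stands for the gene, ran from 32.3 through a median of 689.9 to 1517 in old, and the young arrays read 1489.7, 1761, 840.2, 901 and 2143. Old replicate 5 was again within the young range, the other 5 old arrays lay below every young one, and old replicate 4 was far below the rest. The difference was -1.45 ± 0.63 (SE; 95% confidence interval -2.78 to -0.12; limma adjusted p = 0.609, unadjusted p = 0.0337). Without old replicate 4 it was -0.78 (limma adjusted p = 0.787), and with a block for spike-in class it was -1.11 ± 0.71.

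U73142_g_at, a second Mapk14 probe set, was lower in old as well. It ran from 85.0 through a median of 382 to 716 in old, with young arrays at 691.5, 419.5, 855, 1062 and 725. The 3 old arrays below the young range were replicates 3, 4 and 6, all with bright spike-ins. The difference was -1.19 ± 0.53 (SE, limma adjusted p = 0.613), with -0.23 ± 0.41 within the dim arrays and -2.17 ± 1.35 among the bright ones, where young replicate 4 is the only young array. Without old replicates 3 and 4, those of high GAPDH ratio, it was -0.62 (limma adjusted p = 0.908), and without old replicate 3 it was -0.82.

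Of the remaining Mapk14 probe sets, rc_AA924542_s_at differed by -0.73 ± 0.44 (SE, limma adjusted p = 0.717), with old replicate 6 at 1071 and the other old arrays at 596 or lower, against 482 to 1136 in young. rc_AI171630_s_at showed no common direction, at 0.10 ± 0.58 (SE, limma adjusted p = 0.976), with -0.82 ± 0.73 among the dim and 1.65 ± 1.35 within the bright arrays. U91847_s_at and U73142_at were too dim to be tested. U91847_s_at, with a mean log2 intensity of 6.97, was the member closest under the limit, and U73142_at was at or below the floor on 3 old and 3 young arrays. In the fit without the brightness limit they differed by 0.24 ± 0.69 and 0.25 ± 0.36 (SE), both higher in old by sign, so over all 6 Mapk14 probe sets 3 were lower and the median was -0.32. The mean of the 4 tested probe sets differed by -0.82 ± 0.40 (SE) in a fit of 3206 genes (limma adjusted p = 0.651), beside -0.62 ± 0.33 for Map2k2 and -0.40 ± 0.41 for Map2k1. In that fit Map3k1 differed by -1.03 ± 0.60, Mapk9 by -0.33 ± 0.60 and Mapk8 by 0.22 ± 0.62 (SE).

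The JNK arm held Map3k1, Mapk8 and Mapk9, and none of its 5 tested probe sets reached an unadjusted p of 0.05. Map3k1 (MEKK1), a MAP kinase kinase kinase that feeds the JNK arm, was read by 3 probe sets, and the standard error of U48596_g_at, 0.84, was the highest of the tested members. U48596_g_at read 529, 624, 28.9, 51.4, 63.3 and 41.0 in old replicates 1 to 6, and 686, 275, 509, 28.0 and 549 in young replicates 1 to 5. The 5 arrays with bright spike-ins were at 28.0 to 63.3 and the 6 with dim ones at 275 to 686, with nothing between, in both age groups. The difference of -1.38 ± 0.84 (SE, limma adjusted p = 0.719) was 0.21 ± 0.56 once the spike-in class entered the fit as a block. Among the dim arrays it was 0.26 ± 0.46 and among the bright ones 0.13 ± 1.06.

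U48596_at, named for the same sequence entry, followed the same order. It ran from 31.0 to 131.5 on the bright arrays and from 206 to 519.8 on the dim ones, and the r of the pair over the arrays was 0.83. Its difference of -1.19 ± 0.66 (SE, limma adjusted p = 0.683) was -0.24 ± 0.59 with the block, -0.50 ± 0.50 among the dim and 0.19 ± 1.21 within the bright arrays. Bright and dim arrays did not overlap for these 2 of the 15 tested member probe sets, and in both the bright arrays were lower. The classes were apart for 3.62% of all tested probe sets, and with the bright arrays lower for 2.06%. The third Map3k1 probe set, rc_AI102620_at, did not separate the classes, at 33.9 to 343 on bright and 67.2 to 382 on dim arrays, and differed by -0.51 ± 0.65 (SE, limma adjusted p = 0.869) between the age groups.

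**Figure D3:**
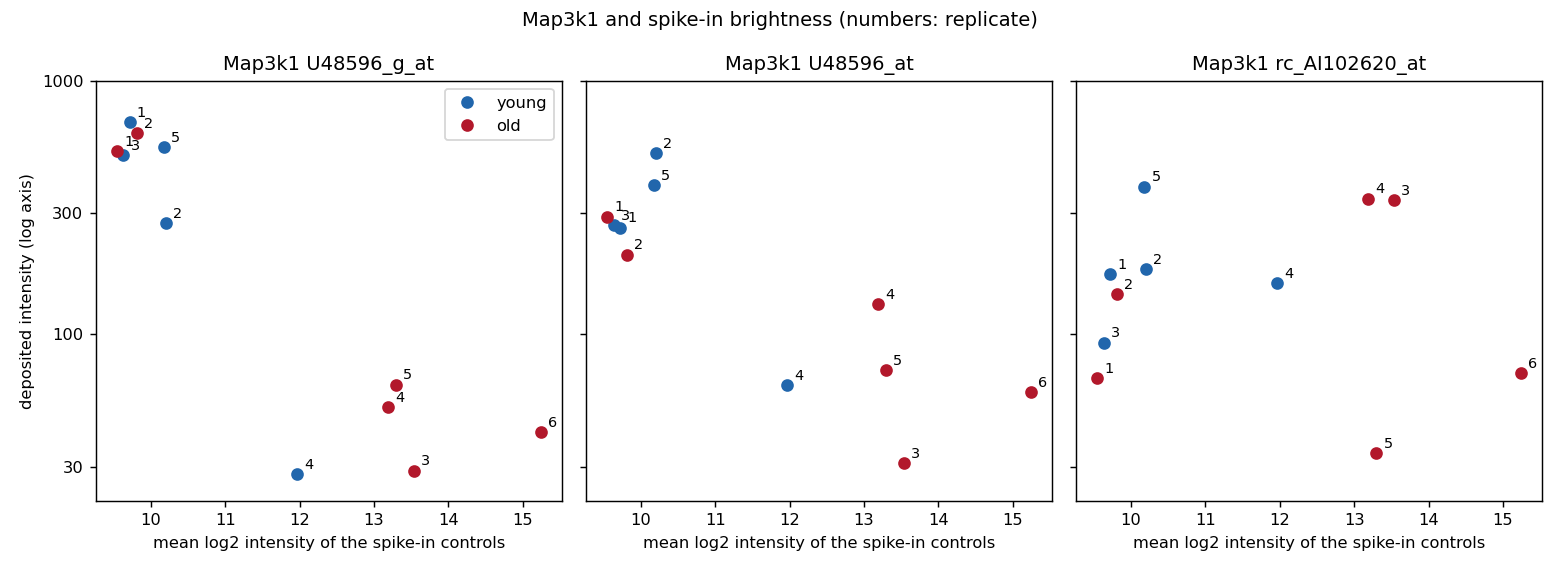
Deposited intensity of the 3 Map3k1 probe sets (log axis) against the mean log2 intensity of the spike-in controls, 1 point an array, labelled by replicate and coloured by age. For U48596_g_at the 5 arrays with bright controls lie at 28.0 to 63.3 and the other 6 at 275 to 686, whichever their age, while rc_AI102620_at shows no such gap.

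Mapk8 (JNK1), a MAP kinase that phosphorylates the transcription factor Jun, had 1 probe set of its own, L27129_at. Old arrays ran from 67.6 through a median of 292 to 477, and the young arrays read 134, 423, 90.8, 257 and 140.3. The groups covered nearly the same range, and the difference was 0.22 ± 0.65 (SE, limma adjusted p = 0.953; 95% confidence interval -1.13 to 1.57). L27128_at, which Mapk8 shares with Mapk10, ran from 16.7 to 258 in old and 20.3 to 171 in young, was at or below the floor on 7 arrays and was not tested.

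Mapk9 (JNK2), the related kinase, had 3 probe sets, of which rc_AI231354_g_at was tested. It ran from 15.4 through a median of 126 to 564 in old, and the young arrays read 145, 160.2, 162, 337 and 184. Old arrays lay both below and above the young ones, 4 below and 1 above, and the difference was -0.33 ± 0.62 (SE, limma adjusted p = 0.912). The SD on the log2 scale was 1.21 in old and 0.49 in young. Its companion rc_AI231354_at ran from 34.2 to 219 in old and 19.4 to 209 in young, and L27112_s_at was at or below the floor on 5 of 6 old and 4 of 5 young arrays. In the fit without the brightness limit, rc_AI231354_at differed by 0.19 ± 0.60 and L27112_s_at by -0.16 ± 0.33 (SE).

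By arm, 5 of 6 tested probe sets of the ERK arm, 4 of 5 of the JNK arm and 3 of 4 of the p38 arm were lower in old. The median log2 differences of these arms were -0.52, -0.51 and -0.96. Those lower in old include D14591_s_at in the ERK arm and the 3 probe sets of Map3k1 in the JNK arm. These were tested because of their young arrays, and the JNK median is the value of 1 of them, rc_AI102620_at. The counts here and below therefore only describe the probe sets that were tested. The p38 median becomes -0.32 with the untested Mapk14 probe sets. The JNK median also leaves out untested probe sets, those of Mapk9, which differed by 0.19 and -0.16 in the fit without the brightness limit. Whether the arms differ from each other was not tested. With a block for spike-in class, 10 of the 15 were lower, beside 50.5% of all tested probe sets in that fit. Among the dim arrays alone (2 old, 4 young) 11 of 15 were lower, beside 45.2% of all. Among the bright arrays alone (4 old, 1 young) 9 of 15 were lower, beside 55.9% of all, and the members' median of -0.18 was near the -0.14 over all probe sets. Without the arrays of high GAPDH ratio 13 were lower, beside 49.3% of all. In that fit 0 of the 15 had an unadjusted p under 0.05, beside 4.996% of all tested probe sets. Without young replicate 1, or without young replicate 5, 1 of the 15 did, beside 5.64% and 6.69% of all. Without old replicate 4, 2 did, beside 6.58%, and among the dim arrays 6 did, beside 7.61%. Array weights and median centring each gave 6, beside 10.7% and 9.8% of all. With its single young array, the bright class gives no useful count of this kind.

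**Figure D4:**
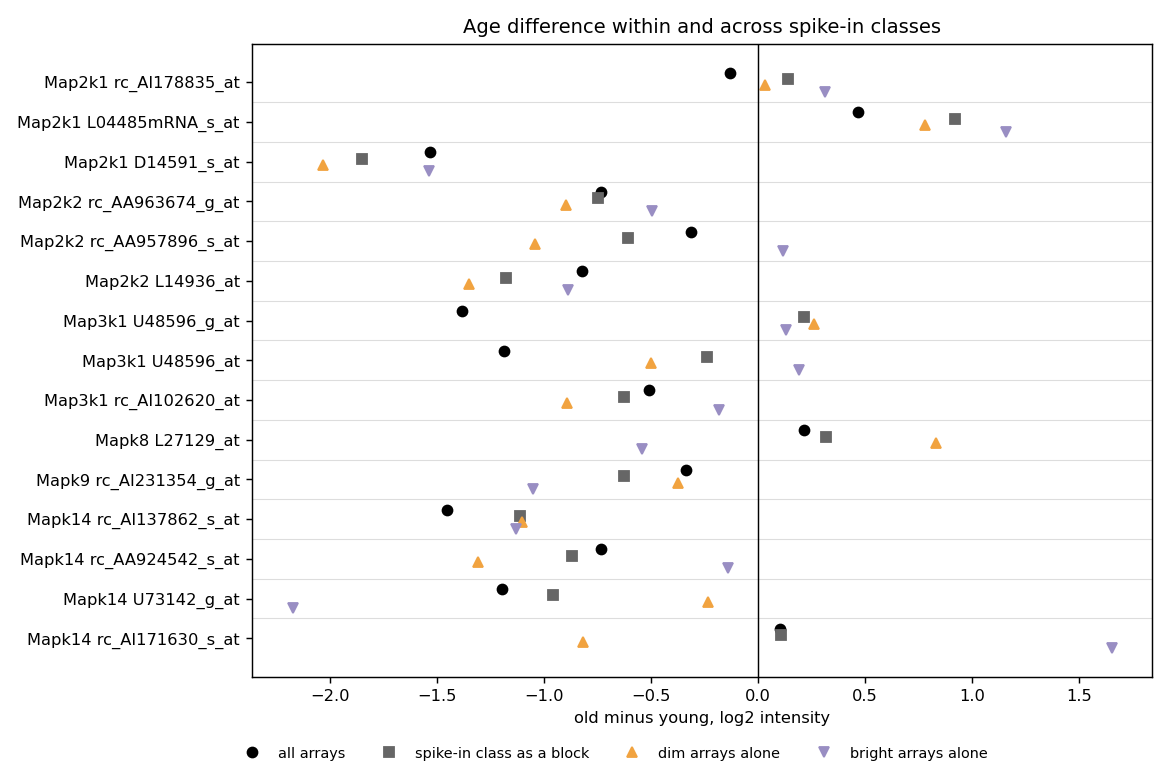
Difference of old minus young in log2 intensity for each tested member probe set, from all arrays, from the fit with spike-in class as a block, and from the dim or the bright arrays alone. In all, 8 probe sets, among them D14591_s_at, rc_AA963674_g_at and rc_AI137862_s_at, lie below 0 in each of the 4 settings, while U48596_g_at moves from -1.38 to between 0.13 and 0.26. The settings are not independent: the block fit combines the dim and the bright arrays, and the bright ones hold 1 young array. The 8 include D14591_s_at and rc_AI102620_at, which were tested because of their young arrays. The share of all tested probe sets that lie below 0 in all 4 settings at once was not counted.

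Probe sets named for the same gene varied together to very different degrees. After removal of the group means, the 15 pairs of tested probe sets of the same gene had a median Pearson r of 0.09 over the 11 arrays, from -0.67 to 0.83, and 10 of them were above 0. The 16 pairs of different genes in an arm had a median of -0.10, and the 74 pairs across arms 0.03. All pairs share the same arrays and their scaling, so these values are descriptions. The highest, 0.83, was the U48596 pair that followed the spike-in classes.

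The genes most like each member by the same measure were searched among 3205 others over 11 arrays, where high values arise readily with so few points. Map3k1 U48596_g_at was most like Pdk4, a kinase that inhibits pyruvate dehydrogenase (r = 0.96), and Tra2b, a splicing factor (r = 0.96). Like this probe set, both had no overlap between arrays of bright and dim spike-ins. Genes picked for likeness to a probe set split in this way are likely to be split as well. Of the other genes named here, Hcrtr1, a neighbour of Map2k1, had no overlap either. Mapk14 was most like Ccnd3, a D-type cyclin (r = 0.93), and the translation factor Eif5b (r = 0.91). All 3 had their lowest old value in replicate 4, where Mapk14 was at the floor. Map2k2 was nearest to Eif2b1, a subunit of a translation initiation factor (r = 0.90), and the sulfate carrier Slc26a2 (r = 0.84). For Map2k1 the nearest were Papss1, which makes the sulfate donor of the cell (r = 0.82), and the orexin receptor Hcrtr1 (r = 0.81). For Mapk8 they were Itpkb, an inositol phosphate kinase (r = 0.91), and the adrenergic receptor Adra1d (r = 0.89), and for Mapk9 Shc2, an adaptor protein (r = 0.95), and the stress-responsive muscle gene Ankrd1 (r = 0.93). None of these 12 passed between the age groups, with limma adjusted p-values from 0.639 to 0.982.

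The rest of the pathway was described by lists of 108 other genes, of which 60 had a probe set and 50 were tested. Among the 50, 0 passed over all probe sets, 4 had an unadjusted p under 0.05 (6.86% of all genes taken by 1 probe set each did), 20 were higher and 30 lower in old, and the median log2 difference was -0.06. Over all 3206 genes taken by 1 probe set each, 1593 were higher and 1613 lower, with a median of -0.01. The 6 member genes taken the same way had a median of -0.53, with 5 lower.

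Upstream activators, the small GTPases, adaptors and MAP kinase kinase kinases, had 6 of 11 tested genes higher in old and 0 past the test, with a median of 0.24. Rac1, a GTPase that feeds the JNK and p38 arms, differed by 0.90 ± 0.54 (SE), and Grb2, the adaptor between growth factor receptors and Ras, by 0.33 ± 0.30, with its 3 tested probe sets between -0.18 and 1.08. Cdc42, a GTPase related to Rac1, differed by -0.76 ± 0.39, with its 4 tested probe sets between -1.02 and 0.10, and Nras, a Ras GTPase upstream of the ERK arm, by -0.79 ± 0.62. The smallest limma adjusted p of these 4 was 0.661, for Cdc42.

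The other MAP kinase kinases and MAP kinases split evenly, with 3 of 6 tested genes higher, 3 lower, 0 past the test and a median of -0.02. Map2k5, the activator of the large MAP kinase Mapk7 (ERK5), differed by -0.98 ± 0.55 (SE), and Mapk7 itself by 0.32 ± 0.63, while its other tested probe set differed by -0.28. Mapk12, the p38 gamma kinase abundant in muscle, differed by -0.70 ± 0.60, and the atypical kinase Mapk4 by 0.49 ± 0.56.

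Scaffolds, phosphatases and other inhibitors had 8 of 19 tested genes higher and 11 lower, with 0 past the test and a median of -0.0031. Dusp1, a phosphatase that inactivates p38 and JNK kinases, had a mean log2 intensity of 8.28 ± 1.45 (SD, n = 6) in the old arrays and of 10.16 ± 0.20 (SD, n = 5) in the young arrays. Its difference was -1.88 ± 0.56 (SE, limma adjusted p = 0.537), and every old array read below every young one; the groups were apart in this way, in either direction, for 0.973% of all tested probe sets. Its 3 tested probe sets differed by -1.88 to -0.30. Arrb2, a beta-arrestin that also acts as a scaffold of these kinases, differed by 0.98 ± 0.44, Ywhaz, a 14-3-3 protein, by 0.61 ± 0.40 (its 3 tested probe sets lay between -0.28 and 0.61), and Dusp5, a phosphatase of nuclear ERK kinases, by -0.65 ± 0.51.

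Downstream kinases and transcription factors had 3 of 14 tested genes higher and 11 lower, with 0 past the test and a median of -0.27. Fosl2, a Fos family partner of Jun, differed by -1.39 ± 0.56 (SE, limma adjusted p = 0.56), and Hspb1, a small heat shock protein phosphorylated downstream of p38, by -0.95 ± 0.29 (SE, limma adjusted p = 0.537). Of those higher in old, Atf3, a stress-induced transcription factor, differed by 0.83 ± 0.58, and Ddit3 (CHOP), a transcription factor phosphorylated by p38, by 0.39 ± 0.50.

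**Figure D5:**
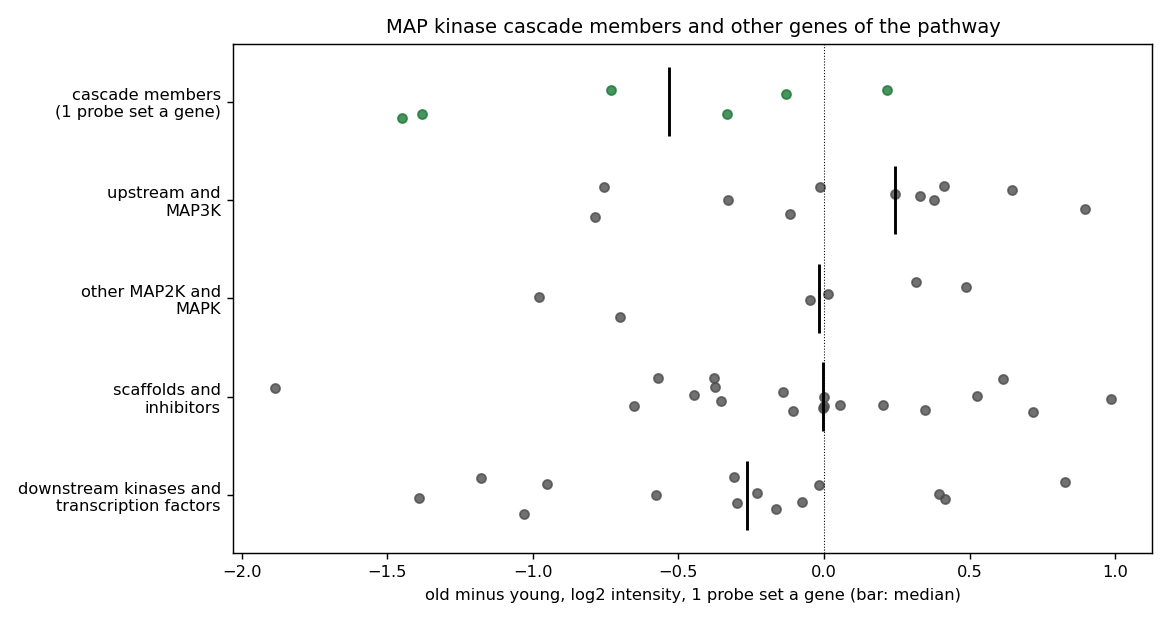
Difference of old minus young in log2 intensity, 1 probe set a gene, for the 6 member genes and the 4 lists of other pathway genes; vertical bars are medians, and the vertical scatter of points is only for legibility. The medians are -0.53 for the members, 0.24 for upstream genes, -0.02 for other kinases, -0.0031 for scaffolds and inhibitors and -0.27 for downstream genes, and 0 genes of any row passed the adjusted test.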

How the data were processed

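The deposited table holds 1 linear intensity per probe set and array, scaled by the authors to a common level: means trimmed by 2% lay between 499.98 and 500.39. How the authors made each intensity (software, background, detection calls) is not stated in the labels or file. Such scaling makes every change relative to the other transcripts of an array.

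Lower values were set to the 20th percentile of the table (47.4, the floor) before taking log2. Left out were 59 controls and the probe sets whose mean log2 intensity was under the 40th percentile (7.00). The age groups were compared by limma 3.58.1 (R 4.3.3) with a mean-variance trend, two-sided, with Benjamini-Hochberg adjustment over 5244 probe sets at 0.05. Tables and figures used Python 3.11.15, pandas 2.3.3, NumPy 2.4.6 and matplotlib 3.10.9. The number of arrays limits the precision. The members' standard errors ran from 0.29 to 0.84.

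Symbols came from GEO's platform annotation: 7006 probe sets had 1 symbol, 308 several and 1426 none; 6985 of the single symbols were matched by gene number to RefSeq (GRCr8), and 0 changed. A gene's brightest tested probe set stood for it. All member probe sets are named, with the 2 genes of smallest p in each direction of each list and the 2 genes most like each member. Members and lists were chosen with earlier results of these data known.

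Tested on simulated data of 5244 probe sets for old against young, with the floor, limma found 8.4% of the differences at 2-fold, 46% at 4-fold, 75.6% at 8-fold and 87.6% at 16-fold. Of its 573 calls, 29 were false. Each simulated run drew independent normal noise for each probe set and held 200 planted differences, spread evenly over these folds. It had no spike-in classes, and the fit of the real arrays called 0 probe sets. The simulated rates of finding and of false calls may therefore not hold for these arrays. The alternatives changed the floor, the filter, the scaling (quantile or median), no trend, array weights, a replicate block, spike-in class or signal, and leaving out arrays. The main fit did not pair samples by replicate number. Same-numbered arrays correlated at -0.25 to 0.25 after removal of group means. Arrays of different numbers were not compared in this way, so these values do not decide whether the samples are paired.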

Additional observations from a re-analysis of the deposited data

Results flagged for a closer look

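Among 38 groups of member values (19 probe sets in 2 age groups), 6 held an array far from the others on the log2 scale after the floor. Chance gives about 1 in 20 for values without ties, a rate that does not apply where several arrays share the floor or lie close to it, as in 4 of the 6. For Mapk14 rc_AI137862_s_at, old replicate 4 was at the floor of 5.57 and the nearest old array at 9.06; this array had bright spike-ins and a high GAPDH ratio. For Mapk9 rc_AI231354_g_at, young replicate 4, the young array with bright spike-ins, was at 8.39 and the nearest at 7.53. Those 4 belong to untested dim probe sets. Mapk9 L27112_s_at read 6.64 in old replicate 2 and 7.28 in young replicate 1, with every other array at the floor of 5.57. Mapk14 U73142_at read 7.59 in old replicate 3, with the nearest old array at 6.22, and 6.53 in young replicate 4, with the nearest young array at 5.69.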

How the results depend on the processing

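Among member probe sets and pathway genes, 0 passed an adjusted p of 0.05 under any of the 26 alternative fits, and the smallest adjusted p of a member was 0.131 (D14591_s_at, array weights). The replicate block, over replicates 1 to 5, changed no call (0 members passed), and its smallest member adjusted p was 0.526. Over all probe sets 0 passed, 394 at an unadjusted p under 0.05, 2 without old replicate 5, 1 in the dim and 5 in the bright arrays alone; leaving out each array in turn gave 0 to 2. Median centring moved the median difference of all probe sets to -0.29 and quantile normalization to -0.12, with 68.8% and 57.9% lower in old; relative to these, the members' median was -0.73 and -0.62. Of 15 tested members 8 kept their sign in every fit that tested them, as did 12 of 16 named pathway genes. The share of all tested probe sets that kept their sign was not counted. The 16 were named for the smallest p in each direction of their list, which favours a kept sign. These fits reuse the same arrays, so a kept sign is not separate support. Of the 8, 3 were not tested under the 60th-percentile filter. The values of the other sign follow; their cause was not tested. Map2k1 rc_AI178835_at was 0.12 with array weights, 0.14 with the spike-in class, 0.20 with the spike-in signal, 0.035 in dim and 0.31 in bright arrays, and -0.31 to 0.10 leaving out single arrays. Mapk14 rc_AI171630_s_at was -0.028 with quantile normalization, -0.19 with median centring, -0.71 with array weights, -0.022 with the spike-in signal, -0.82 in dim arrays, -0.011 without the high GAPDH ratios, and -0.21 to 0.45 leaving out single arrays. Map3k1 U48596_g_at was 0.21 with the class, 0.42 with the signal, 0.26 in dim and 0.13 in bright arrays, and U48596_at 0.19 in bright arrays. Mapk8 L27129_at was -0.072 with median centring, -0.54 in bright arrays and -0.028 to 0.54 leaving out single arrays. Map2k2 rc_AA957896_s_at was 0.12 in bright arrays, and Map2k1 L04485mRNA_s_at -0.022 to 0.81 leaving out single arrays. Mapk4 was -0.20 with the signal and -0.24 in dim arrays, Mapk7 -0.13 in dim arrays, -0.16 without the high GAPDH ratios and -0.17 to 0.54 leaving out single arrays, Atf3 -0.073 in dim and Nras 1.07 in bright arrays.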
